A study of Mus musculus with 36 samples.

Results

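The 10 genes described here carry out the display of intracellular peptides on MHC class I molecules: the heavy chains H2-D1, H2-K1 and H2-Q4, the light chain B2m, the peptide transporter subunits Tap1 and Tap2, the loading factor Tapbp (tapasin), the transcriptional coactivator Nlrc5, and the inducible proteasome subunits Psmb8 and Psmb9. They were chosen by symbol: each row of the raw count table whose Ensembl identifier maps to one of these names was a member. All 10 were found among 49585 gene identifiers, and all 10 were among the 20009 genes that passed the filter on low counts.

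RNA was sequenced from neoplastic cells that had been sorted by EGFP out of mouse lung tumours. Every tumour carried an EML4-ALK fusion, an oncogene that joins part of EML4 to the ALK tyrosine kinase, either as variant 1 or as variant 3. In each variant the tumours had a guide named sgNeo, labelled as leaving Setd2 intact, or sgSetd2, labelled as Setd2-deficient. Setd2 encodes the enzyme that trimethylates lysine 36 of histone H3. The 4 groups (Variant 1 sgNeo, Variant 1 sgSetd2, Variant 3 sgNeo and Variant 3 sgSetd2) held 9 tumours each. Sample titles carry a code, 3 codes in each group and 3 tumours under each code, and what a code stands for is not labelled. Counts were therefore summed per code, giving n = 3 per group, and the tests rest on the spread among codes, which may be partly technical. The sources used here do not give the strain, age or sex of the mice, or the way in which fusion and guide were delivered. H2 genes differ between mouse haplotypes, and reads from a haplotype other than that of the reference could align less completely.

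An MHC class I molecule is a heavy chain held together with beta-2 microglobulin and a short peptide. The peptides are cut by the proteasome, pumped into the endoplasmic reticulum by the Tap1-Tap2 transporter and loaded with the help of tapasin, and the finished complex is shown to CD8 T cells and natural killer cells. Interferons raise the whole pathway, in part through Nlrc5, and exchange the constitutive catalytic subunits of the proteasome for inducible ones, while NF-kappaB also acts on heavy chain promoters. Alveolar type 2 cells, the surfactant-making cells of the alveolus, are known to carry class I molecules.

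The sorted cells were checked against markers before the class I genes were read. Surfactant and epithelial markers summed to between 32085 and 209941 CPM in every tumour. CPM are the counts of a gene per 1 M counts of its library, with the total scaled by TMM. In Variant 1 sgNeo the lowest sums were 32085, 72395 and 86084 CPM, in CE467 tumour 1, CE468 tumour 4 and CE472 tumour 2. These tumours also had the lowest H2-D1 of that group, at 490, 585 and 619 CPM. In Variant 1 sgSetd2, CE479 tumour 2 had a sum of 75150 CPM and 3223 CPM of H2-D1. A link was not tested. Of these 11 markers only Napsa passed by edgeR, lower with sgSetd2 in Variant 3 and averaged over variants. Markers of T, NK and B cells summed to at most 1.37 CPM, endothelial markers to at most 8.9 CPM, and Ptprc, the pan-leukocyte gene, stood at a median of 0 CPM in 3 groups and 0.288 CPM in Variant 3 sgSetd2. Neutrophil markers summed to at most 8.5 CPM, with medians of 0 CPM in both sgNeo groups, 0.763 in Variant 1 sgSetd2 and 0.606 in Variant 3 sgSetd2. The 2 neutrophil genes tested had positive log2 differences in each guide comparison, and neither passed by edgeR. Summed fibroblast markers were higher in the median sgSetd2 tumour of each variant, at 23.3 against 5.87 CPM in Variant 1 and 43.4 against 11 CPM in Variant 3. They exceeded 100 CPM in 1 Variant 1 sgNeo tumour (405 CPM, CE467 tumour 1), 2 Variant 1 sgSetd2 tumours (182 and 115 CPM, CE479 tumours 4 and 2) and 1 Variant 3 sgSetd2 tumour (101 CPM, CE454 tumour 3). None of the 6 fibroblast markers passed in a guide comparison by edgeR. Of the 6, 1 had a positive log2 difference in Variant 1 and 5 in Variant 3, with medians of -1.18 and 2.19. Without these 4 tumours the averaged log2 fold changes were 0.94 for H2-D1, 0.95 for H2-K1 and 1.21 for B2m (adjusted p = 0.00421, 0.011 and 0.0146). In that fit no member passed in Variant 1 or in Variant 3 alone, where 341 and 317 of all genes passed. The summed leukocyte and macrophage markers did move with the guide, from 133 to 361 CPM in Variant 1 sgNeo and 260 to 405 CPM in Variant 1 sgSetd2, and from 174 to 286 CPM in Variant 3 sgNeo and 265 to 404 CPM in Variant 3 sgSetd2. Nearly all of that sum was Cd14, which lay between 127 and 397 CPM and rose in sgSetd2 tumours averaged over variants (log2 fold change 0.57, adjusted p = 0.0344). It was the only one of the 14 tested markers of this list that passed. Of the 14, 6 had a positive log2 difference in Variant 1, 11 in Variant 3 and 6 averaged. Their medians were -1.88, 0.50 and -0.51, so the rise of the sum is not a rise of the list. Setd2 itself ran from 43.5 to 94.6 CPM in Variant 1 sgNeo tumours, 27.4 to 46.4 in Variant 1 sgSetd2, 39.2 to 68.8 in Variant 3 sgNeo and 28.2 to 81.7 in Variant 3 sgSetd2, so that the guides' ranges overlapped in both variants. The tumours had totals between 17.9 M and 137.2 M counts, with a median of 40.7 M.

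The promoters of 4 members are shown because they cover the classical heavy chains, the light chain and a transporter subunit, which are read from separate promoters and all rose in the average described further on. RefSeq promoter entries (GRCm38.p6) were available for 8 of the 10 members. The stretches run 5′ to 3′ up to the base before the RefSeq start: chr17:35262874-35263093 on the plus strand for H2-D1, chr17:34000348-34000567 on the minus strand for H2-K1, chr2:122147467-122147686 on the plus strand for B2m and chr17:34187331-34187555 on the plus strand for Tap1. Capitals mark matches, on either strand, to 5 letter strings: GGGATTCCC (a kappaB site), TGACGC (the CRE-like X2 box), CCAAT (the Y box), GAAANNGAA (the core of an interferon-stimulated response element) and TTCNNNGAA (a gamma-activated site).
H2-D1: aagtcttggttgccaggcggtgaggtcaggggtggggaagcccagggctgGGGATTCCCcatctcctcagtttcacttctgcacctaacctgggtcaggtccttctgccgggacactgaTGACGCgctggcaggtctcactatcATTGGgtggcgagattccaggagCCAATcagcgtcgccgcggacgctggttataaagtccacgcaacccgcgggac
H2-K1: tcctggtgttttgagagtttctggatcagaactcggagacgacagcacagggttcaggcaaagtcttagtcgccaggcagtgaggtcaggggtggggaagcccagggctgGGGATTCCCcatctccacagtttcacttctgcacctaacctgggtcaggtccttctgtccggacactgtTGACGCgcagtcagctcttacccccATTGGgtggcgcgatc
B2m: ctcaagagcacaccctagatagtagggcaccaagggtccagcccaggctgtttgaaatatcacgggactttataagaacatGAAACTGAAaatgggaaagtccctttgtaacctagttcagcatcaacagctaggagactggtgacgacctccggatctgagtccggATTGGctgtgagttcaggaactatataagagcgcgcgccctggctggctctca
Tap1: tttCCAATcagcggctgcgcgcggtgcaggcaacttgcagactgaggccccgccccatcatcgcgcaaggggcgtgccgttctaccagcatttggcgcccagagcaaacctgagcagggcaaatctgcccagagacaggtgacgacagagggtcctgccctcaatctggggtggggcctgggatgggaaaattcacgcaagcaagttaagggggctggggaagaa
H2-D1 and H2-K1 carry the same arrangement, with the kappaB string 170 bases before the start in H2-D1 and 110 before it in H2-K1, and the X2 box 69 bases further on in both. From the first base of the kappaB string to the last base of the X2 box, 71 of 75 bases are identical. The table holds another start for H2-K1, at 34000333, from which the kappaB string lies 124 bases away and a further Y box falls 6 bases before the start. H2-Q4, whose promoter is not shown, has no kappaB string in its window and an X2 box match only after its start. Of 32851 promoters of 300 bases in the table, 0.353% hold the kappaB string, 7.4% the X2 box, 37.4% the Y box, 8.56% the response element core and 8.3% the gamma-activated site. B2m has the response element core 139 bases before its start and a Y box on the other strand 53 bases before it. The Tap1 stretch covers the 225 bases between the start of Tap1 and that of Psmb9, which is read in the other direction from the same DNA. Its only match is a Y box that lies 222 bases before the Tap1 start. The gamma-activated site was matched in Psmb8 only, 97 bases before the start, among the 8 members with an entry. These are exact letter matches in fixed windows, so a form of an element that differs from its string by a base went unmarked. A missing match therefore does not show that an element is absent. Binding was not measured.

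B2m was the most abundant member per length, and the classical heavy chains came next. Divided by exon length and averaged over the 36 tumours, levels were 1970 CPM per kb for B2m, 833 for H2-D1 and 507 for H2-K1, and this order was the same in each of the 4 groups. Tapbp followed at 60.2 CPM per kb and Psmb8 at 17.6, each apart from its neighbours in every group mean. Tap2 (9.0 CPM per kb), Psmb9 (7.65) and Tap1 (7.0) had overlapping ranges of their 4 group means. Within each group Psmb9 lay above Tap1, though only at 5.17 against 5.02 in Variant 1 sgNeo. Tap2 lay above both except in Variant 3 sgSetd2, with 9.58 against 10.7 for Psmb9 and 9.98 for Tap1. H2-Q4 (3.97) had group means from 1.74 to 6.39 CPM per kb, and lay below Tap1, Tap2 and Psmb9 in each group. Nlrc5 had the lowest average, 1.49 CPM per kb. Its group means of 0.837 to 2.15 overlap those of H2-Q4 only across groups, and within each group it was the lower. Class I transcripts were thus present at high level in tumours of both guides, and the comparisons below are of degree.

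**Figure D1:**
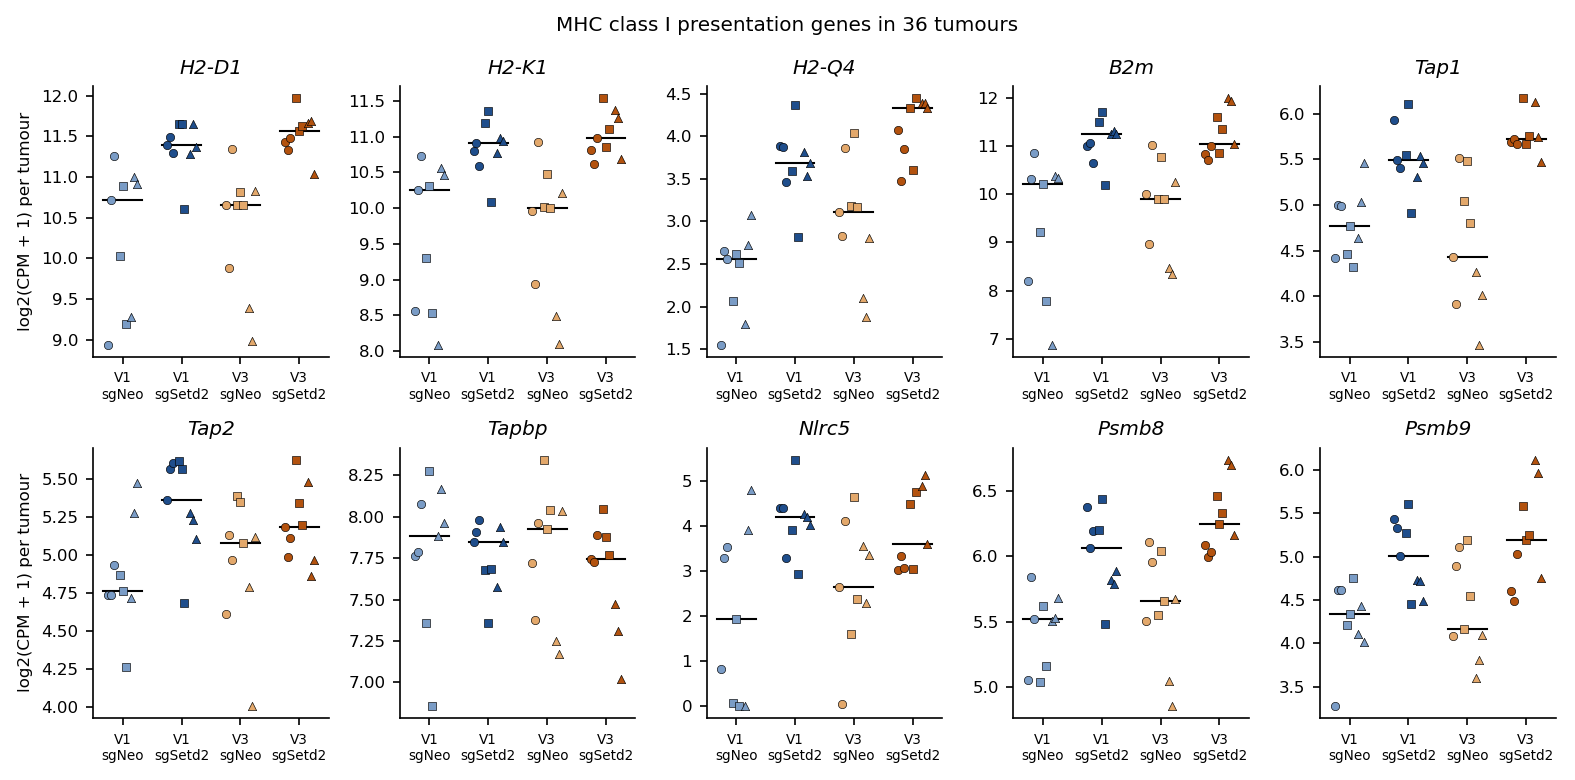
Level of each of the 10 genes in the 36 tumours, as log2(CPM + 1). Colours are the 4 groups (V1 and V3 for Variants 1 and 3), symbols the 3 codes of a group, and bars the group medians. For the heavy chains, B2m and Tap1 the sgSetd2 tumours gather at the top of each panel while sgNeo tumours spread downward, and Tapbp shows no such shift.

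The comparison of guides asks whether tumours with sgSetd2 express the pathway at another level than those with sgNeo. In Variant 1, the heavy chains H2-D1, H2-K1 and H2-Q4 and the light chain B2m rose, by 2.18 to 2.94 fold, and no member fell. In Variant 3, H2-D1 and H2-K1 rose, by 1.98 and 2.05 fold, and no member fell. Averaged over both variants 7 of 10 rose, with Tap1, Psmb8 and Psmb9 added to the 4 of Variant 1. Tap2, Tapbp and Nlrc5 passed in none of these comparisons. Over all genes tested, 1.42% passed in Variant 1, 1.49% in Variant 3 and 7.35% in the averaged comparison (edgeR's quasi-likelihood test, Benjamini-Hochberg adjusted p under 0.05). The median log2 fold change of the 10 members was 1.02 in Variant 1, 0.83 in Variant 3 and 0.98 averaged, against -0.01, 0.02 and 0.01 over all 20009 genes, and 9 of 10 members had a positive value in each. All 3 sgSetd2 codes lay above all 3 sgNeo codes for 9 of 10 members in Variant 1, where this held for 11.7% of all genes, and for 6 of 10 in Variant 3, where it held for 10%.

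**Figure D2:**
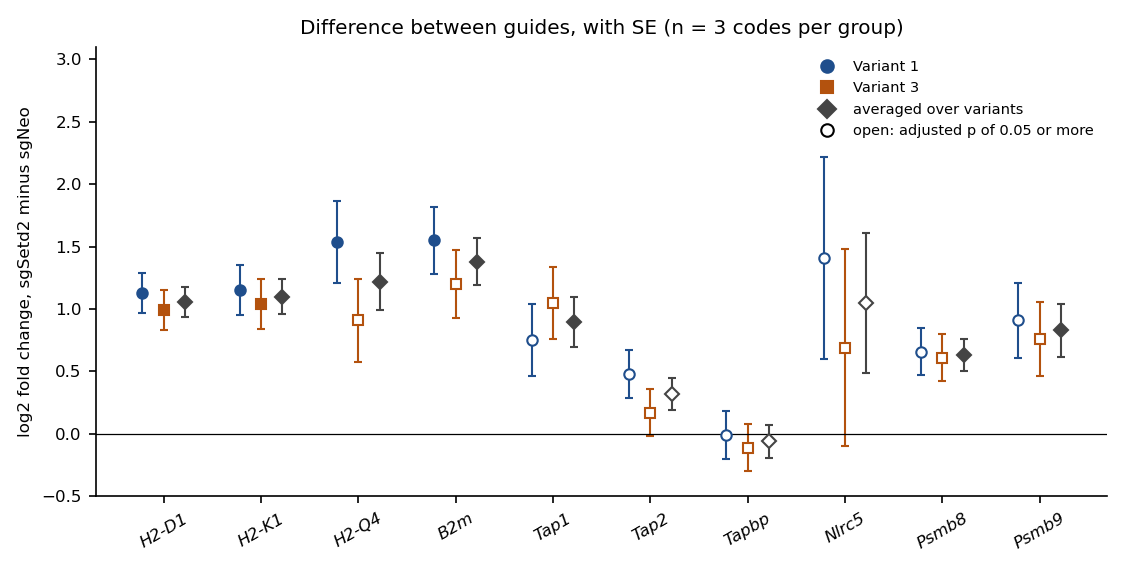
Log2 fold change of each member, sgSetd2 minus sgNeo, in Variant 1 (circles), Variant 3 (squares) and averaged over variants (diamonds), with SE, n = 3 codes per group. Filled symbols passed at an adjusted p under 0.05: 4 genes in Variant 1, 2 in Variant 3 and 7 in the average.

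H2-D1 (ENSMUSG00000073411.11; GRCm38 chromosome 17, 35262730 to 35267499) encodes one of the classical heavy chains that present peptide to CD8 T cells. In Variant 1 its codes stood at 1243, 1131 and 1418 CPM with sgNeo (CE467, CE468 and CE472) and at 2736, 2685 and 2862 CPM with sgSetd2 (CE475, CE479 and CE483). In Variant 3 they stood at 1616, 1755 and 1207 CPM with sgNeo (CE428, CE429 and CE433) and at 2756, 3399 and 2922 CPM with sgSetd2 (CE450, CE454 and CE456). The codes of the 2 guides did not overlap in either variant. Means were 1264 ± 145 against 2761 ± 91.2 CPM in Variant 1 and 1526 ± 285 against 3026 ± 334 CPM in Variant 3 (SD, n = 3). The sgSetd2 minus sgNeo log2 difference was 1.13 in Variant 1 (SE 0.16, adjusted p = 0.0142) and 0.99 in Variant 3 (SE 0.16, adjusted p = 0.0148). Single tumours spread further: from 490 through a median of 1678 to 2438 CPM in Variant 1 sgNeo and from 1561 through 2686 to 3223 in Variant 1 sgSetd2. In Variant 3 they ran from 505 through 1617 to 2602 CPM with sgNeo and from 2096 through 3021 to 4004 CPM with sgSetd2. In Variant 1, 8 of 9 sgSetd2 tumours lay above the highest sgNeo tumour, and in Variant 3, 7 of 9 did.

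H2-K1 (ENSMUSG00000061232.15; chromosome 17, 33996017 to 34000347, minus strand) encodes the other classical heavy chain of the reference haplotype. Its sgNeo codes stood at 899, 714 and 961 CPM in Variant 1 and 1048, 1304 and 752 CPM in Variant 3. Its sgSetd2 codes stood at 1766, 2015 and 1944 CPM in Variant 1 and 1829, 2303 and 2238 CPM in Variant 3, again with no overlap. H2-K1 rose by 1.15 on the log2 scale in Variant 1 (SE 0.20, adjusted p = 0.0245) and by 1.04 in Variant 3 (SE 0.20, adjusted p = 0.0296). Among single tumours, 7 of 9 in Variant 1 sgSetd2 and 5 of 9 in Variant 3 sgSetd2 exceeded every sgNeo tumour of their variant.

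H2-Q4 (ENSMUSG00000035929.11; chromosome 17, 35379617 to 35385290) encodes a nonclassical heavy chain of the Q region and was read from far fewer counts. Its codes stood at 3.46, 3.92 and 5.26 CPM in Variant 1 sgNeo and at 12.5, 12.1 and 12.1 CPM in Variant 1 sgSetd2, a rise of 1.54 on the log2 scale (SE 0.33, adjusted p = 0.0491). In Variant 3 they stood at 8.58, 13.0 and 4.48 CPM with sgNeo and at 13.2, 16.1 and 19.6 CPM with sgSetd2, a log2 difference of 0.91 that did not pass (SE 0.33, adjusted p = 0.214). In Variant 1, 8 of 9 sgSetd2 tumours exceeded the highest sgNeo tumour, which had 7.46 CPM. Heavy chain genes are near copies of each other, and the counting could have split or moved reads among them. When the 29 heavy chain rows of the table were summed to 1 row, of which H2-D1 held 51.5% and H2-K1 35.9% of the counts, the sum rose by 1.14 in Variant 1 (SE 0.18, adjusted p = 0.0195) and by 1.01 in Variant 3 (SE 0.18, adjusted p = 0.0227).

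B2m (ENSMUSG00000060802.8; chromosome 2, 122147686 to 122153083) encodes the light chain, which every class I molecule needs to reach the cell surface, and lies outside the MHC. Its Variant 1 codes stood at 903, 646 and 812 CPM with sgNeo and at 1943, 2462 and 2531 CPM with sgSetd2. Its Variant 3 codes stood at 1090, 1492 and 783 CPM with sgNeo and at 1878, 2449 and 3378 CPM with sgSetd2. The guides did not overlap in either variant. B2m rose by 1.55 in Variant 1 (SE 0.27, adjusted p = 0.0245), and the log2 difference of 1.20 in Variant 3 missed the threshold (SE 0.27, adjusted p = 0.0521). Averaged over variants it rose by 1.38 (SE 0.19, adjusted p = 0.00199), the largest averaged value among the 10 members. Its Variant 1 sgNeo tumours ran from 117 to 1849 CPM, a 15.8-fold range, against 1158 to 3344 CPM in Variant 1 sgSetd2. The same range was 4.98-fold for H2-D1 and 6.26-fold for H2-K1 in Variant 1 sgNeo, while in Variant 3 sgNeo it was 6.41-fold for B2m and 7.12-fold for H2-K1.

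Psmb8 and Psmb9 encode catalytic subunits of the immunoproteasome, the form whose cuts favour peptides that bind class I molecules. Psmb8 (ENSMUSG00000024338.14; chromosome 17, 34197721 to 34201454) stood at 41.0, 36 and 47.8 CPM in Variant 1 sgNeo codes and 72.6, 67.2 and 56.9 CPM in Variant 1 sgSetd2 codes. In Variant 3 it stood at 57.5, 59.8 and 39.9 CPM with sgNeo and 65.3, 81.1 and 93.3 CPM with sgSetd2. The codes did not overlap, and Psmb8 rose averaged over variants by 0.63 (SE 0.13, adjusted p = 0.0163), while 0.66 in Variant 1 and 0.61 in Variant 3 did not pass alone (adjusted p = 0.113 and 0.144). Psmb9 (ENSMUSG00000096727.2; chromosome 17, 34181987 to 34187764, minus strand) stood at 15.9, 19.6 and 16.4 CPM in Variant 1 sgNeo codes and 37.4, 35.2 and 24.9 CPM in Variant 1 sgSetd2 codes. In Variant 3 the values were 25, 30.8 and 14.1 CPM with sgNeo and 26.1, 40.0 and 51.9 CPM with sgSetd2, so that the lowest sgSetd2 code lay below the highest sgNeo code. Psmb9 rose averaged over variants by 0.83 (SE 0.21, adjusted p = 0.037). The gene models of Psmb9 and Tap1 overlap by 212 bases on opposite strands, and it is not given whether the counting used strand, so reads there cannot be told apart.

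A ratio of 2 genes within a library does not depend on how the library was scaled, so each inducible subunit was also set against the constitutive subunit it replaces. The log2 ratio of Psmb8 to Psmb5 was -0.70 ± 0.18 in Variant 1 sgNeo and 0.16 ± 0.22 in Variant 1 sgSetd2, and -0.74 ± 0.40 in Variant 3 sgNeo and -0.04 ± 0.23 in Variant 3 sgSetd2 (mean of tumours per code, SD, n = 3 codes). The difference averaged over variants was 0.78 (exact two-sided permutation of codes within variants, p = 0.005, the smallest value that 400 arrangements allow, and 0.0075 adjusted over 3 ratios). For Psmb9 to Psmb6 the averaged difference was 0.99 (exact permutation p = 0.005, adjusted 0.0075), from -3.26 ± 0.11 to -2.29 ± 0.32 in Variant 1 and from -3.35 ± 0.65 to -2.33 ± 0.38 in Variant 3. Psmb10, the remaining inducible subunit and not one of the 10 members, moved by 0.11 against Psmb7 (exact permutation p = 0.305, adjusted 0.305). In both variants the codes of the 2 guides did not overlap in the first pair of ratios, and they overlapped in the last. The ratios also carry any change of the constitutive subunits. The log2 difference of Psmb5 was -0.31 in Variant 1 and 0.06 in Variant 3, and that of Psmb6 -0.25 and -0.14. None of these passed by edgeR.

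**Figure D3:**
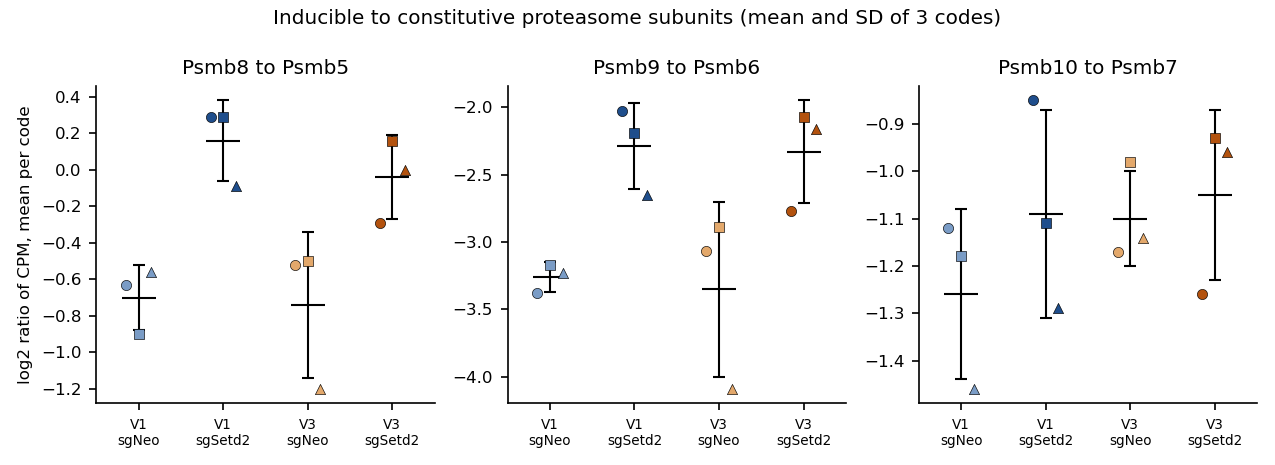
Log2 ratio of each inducible proteasome subunit to its constitutive counterpart, per code (mean over its 3 tumours), with the mean and SD of the 3 codes of each group. The sgSetd2 codes lie above the sgNeo codes for Psmb8 to Psmb5 and Psmb9 to Psmb6 in both variants, and overlap them for Psmb10 to Psmb7.

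Tap1 and Tap2 encode the paired subunits of the peptide transporter and lie in the same stretch of the MHC as Psmb8 and Psmb9, within 34.3 kb. Tap1 (ENSMUSG00000037321.17; chromosome 17, 34187553 to 34197225) stood at 25.4, 21.8 and 34.4 CPM in Variant 1 sgNeo codes and 47.2, 47.1 and 43.1 CPM in Variant 1 sgSetd2 codes, and at 24.2, 39.1 and 14.5 CPM in Variant 3 sgNeo codes and 51.2, 57.8 and 52.5 CPM in Variant 3 sgSetd2 codes. The guides did not overlap. Tap1 rose averaged over variants by 0.90 (SE 0.20, adjusted p = 0.0228), and 8 of 9 Variant 3 sgSetd2 tumours exceeded the highest Variant 3 sgNeo tumour, at 44.9 CPM. In single variants its values were 0.75 (adjusted p = 0.222) and 1.05 (adjusted p = 0.104). Tap2 (ENSMUSG00000024339.12; chromosome 17, 34203527 to 34216321) stood at 26.5, 25.9 and 35.9 CPM in Variant 1 sgNeo codes against 46.1, 40.0 and 37.0 CPM with sgSetd2, and at 29.3, 38.9 and 27.0 CPM in Variant 3 sgNeo codes against 33.5, 42.0 and 31.3 CPM with sgSetd2. Its averaged log2 difference was 0.32 (SE 0.13, adjusted p = 0.166), and its codes overlapped in Variant 3.

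Tapbp (ENSMUSG00000024308.14; chromosome 17, 33915899 to 33929292) encodes tapasin, which holds the empty class I molecule beside the transporter. Its codes stood at 228, 185 and 250 CPM in Variant 1 sgNeo and 245, 190 and 225 CPM in Variant 1 sgSetd2, and at 205, 259 and 204 CPM in Variant 3 sgNeo and 223, 242 and 152 CPM in Variant 3 sgSetd2. The codes overlapped in both variants. The averaged log2 difference was -0.06 (SE 0.13, adjusted p = 0.854), whose sign turns when some single libraries are left out.

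Nlrc5 (ENSMUSG00000074151.13; chromosome 8, 94434356 to 94527272) encodes the coactivator that binds class I promoters through the X1, X2 and Y box factors. Its level was low and uneven. Codes stood at 5.05, 0.638 and 14.6 CPM in Variant 1 sgNeo, 16.2, 20.5 and 17.6 CPM in Variant 1 sgSetd2, 6.04, 17.3 and 8.06 CPM in Variant 3 sgNeo and 7.91, 16.4 and 26.3 CPM in Variant 3 sgSetd2. In Variant 1 sgNeo, 2 tumours had no count of Nlrc5 and the others reached 27.0 CPM, while Variant 1 sgSetd2 tumours ran from 6.7 to 43.4 CPM. With that spread the log2 difference of 1.41 in Variant 1 had an SE of 0.81 and did not pass (adjusted p = 0.433), nor did 0.69 in Variant 3 (adjusted p = 0.765). The value depends on the method: limma on tumours gave 4.52 in Variant 1 (adjusted p = 0.0763), and the cell cycle covariate described below gave -0.38. Averaged over variants edgeR gave 1.05 (adjusted p = 0.297), while limma called Nlrc5 on tumours (2.90, adjusted p = 0.0156) and on code means, as did edgeR in 1 of 48 fits without 1 code or tumour, that without CE472 tumour 6.

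The fusion variants were compared within each guide, and the guide effect between variants. No member passed for Variant 3 against Variant 1 in sgNeo tumours, in sgSetd2 tumours or in the interaction, where 0.005%, 0.13% and 0% of all genes passed in turn. DESeq2 on the same sums and limma on tumours or on code means also called none of the 10. At an unadjusted p under 0.05 by edgeR, 1 member stood in the sgNeo comparison (H2-Q4), and 0 in the other two. The medians of the 10 log2 differences were 0.30, 0.15 and -0.15, against -0.02, 0.03 and 0.04 over all genes. The interaction values of the members lay between -0.73 and 0.30, and that of H2-D1 was -0.14 with an SE of 0.23. A difference in guide effect between the variants was not detected, though calls differ in number, 4 against 2.

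For the heavy chains and B2m, most of the lowest sgNeo tumours were those with the highest levels of cell cycle genes. The mean log2(CPM + 1) of 24 S phase and mitosis genes, a list chosen after these values were seen, exceeded 4.5 in 3 Variant 1 sgNeo tumours, 3 Variant 3 sgNeo tumours, 1 Variant 3 sgSetd2 tumour and no Variant 1 sgSetd2 tumour. In Variant 3 sgNeo these 3 tumours had 505 to 942 CPM of H2-D1, and the other 6 had 1607 to 2602. Their B2m was 323 to 501 CPM against 950 to 2069, and their H2-K1 273 to 491 CPM against 996 to 1946, with no overlap for these 3 genes or for Tapbp (143 to 165 against 210 to 324 CPM). In Variant 1 sgNeo the 3 tumours had 490 to 1039 CPM of H2-D1, 117 to 596 of B2m and 0 to 0.76 of Nlrc5. A further Variant 1 sgNeo tumour (CE468, tumour 4) with a cell cycle mean of 4.29 was as low, at 585 CPM of H2-D1 and 219 CPM of B2m. The other tumours between 4 and 4.5 were not as low. CE467 tumour 2 (Variant 1 sgNeo, 4.04) had 1678 CPM of H2-D1. In Variant 3 sgSetd2, CE450 tumours 3 and 5 and CE456 tumour 6 (4.38, 4.03 and 4.26) had 2572, 2856 and 3249 CPM. Not every member was low in the sgNeo tumours above 4.5: Psmb8 reached 68.2 CPM in CE428 tumour 2, the highest Variant 3 sgNeo value. The single Variant 3 sgSetd2 tumour above 4.5 (CE450, tumour 1, at 4.93) had 2750 CPM of H2-D1 and 1812 CPM of B2m, inside the range of the other 8 sgSetd2 tumours.

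**Figure D4:**
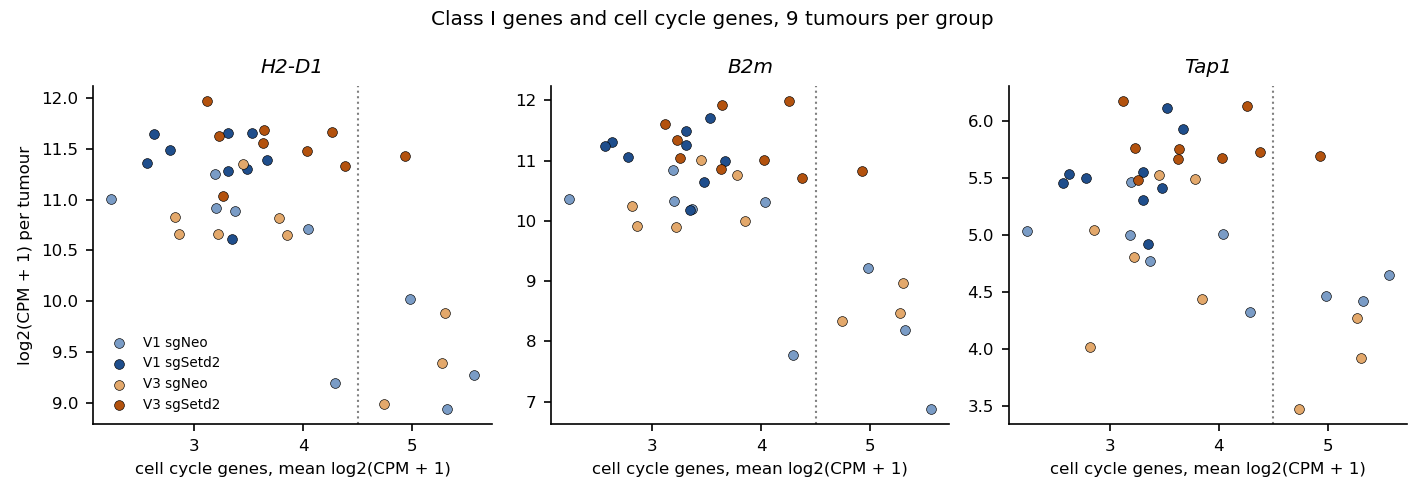
H2-D1, B2m and Tap1 per tumour, as log2(CPM + 1), against the mean log2(CPM + 1) of 24 cell cycle genes. Colours are the 4 groups of 9 tumours, and the dotted line marks 4.5. To the right of the line the 6 sgNeo tumours lie low for H2-D1 and B2m, and the 1 sgSetd2 tumour stays among the other sgSetd2 tumours.

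Cell cycle genes also moved with the guide, with 4 of 24 lower in Variant 1, none in Variant 3 and 5 averaged over variants. The share called over all genes was 1.42%, 1.49% and 7.35%. The 24 cell cycle genes had median log2 differences of -1.57, -0.29 and -0.97. Of them, 24, 0 and 23 stood at an unadjusted p under 0.05 by edgeR. Their part in the class I difference was not tested, and the refits that follow were chosen after seeing the data. Leaving out the 7 tumours above 4.5 left 0 of 10 members called in Variant 1, 0 in Variant 3 and 2 in the average, H2-D1 and B2m, while 9 of 10 log2 differences kept a positive sign in each. Calls over all 19253 genes then tested were also fewer, at 6 in Variant 1, 129 in Variant 3 and 338 in the average, against 284, 299 and 1471 with all tumours. H2-D1 was then at 0.62 in Variant 1, 0.69 in Variant 3 and 0.65 averaged (SE 0.14, adjusted p = 0.038), and B2m at 0.93, 0.88 and 0.91 (SE 0.20, adjusted p = 0.0464). With the cell cycle mean as a covariate, H2-D1 and H2-K1 were called in Variant 3 (0.92 and 0.95, adjusted p = 0.0308 and 0.048), and no member in Variant 1 or in the average. Of 20009 genes, 0 passed in Variant 1 with this covariate (950 at an unadjusted p under 0.05 by edgeR) and 16 in the average. The single-variant calls also rest on few units. Leaving out CE468, CE475 or CE483 left no member called in Variant 1, leaving out CE467 or CE472 left 1, and leaving out CE428 or CE433 left none in Variant 3. Calls over all genes fell as well, in Variant 1 to 60, 19 and 16 without CE468, CE475 and CE483 and to 113 and 71 without CE467 and CE472, and in Variant 3 to 81 and 78 without CE428 and CE433. In the average, H2-D1, H2-K1, H2-Q4 and B2m were called in all 48 fits without 1 code or 1 tumour, Psmb8 in 47, Tap1 in 43 and Psmb9 in 35. Leaving out CE475 there left those 4 of 7.

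Part of the variance lies within codes. On the log2(CPM + 1) scale over the 36 tumours, the 4 groups accounted for 64.3% of the variance of H2-Q4, 58.7% of Tap1, 54.9% of Psmb8, 49.0% of H2-D1 and 48.3% of B2m, against a median of 13.9% over all genes tested and 2.39% for Tapbp. Tumours of the same code accounted for 42.2% of the variance of H2-D1 and 43.1% of B2m, and codes within a group for 8.74% and 8.61%. With group means taken away, each member was set against the mean of the other 9 across the 36 tumours. Pearson's r was 0.94 for H2-K1, 0.91 for H2-D1, 0.90 for B2m, 0.83 for H2-Q4 and 0.81 for Tap1, and fell through 0.71 for Psmb8, 0.68 for Nlrc5, 0.63 for Tap2 and 0.55 for Psmb9 to 0.46 for Tapbp. These are descriptions over tumours that share codes, and purity, cell number and RNA per cell cannot be told apart in bulk samples of sorted cells.

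Genes next to the members in the pathway moved unevenly. Of 13 tested other heavy chain genes on the list, H2-Q6 and H2-Q7 rose in both variants, and H2-T10 and H2-T22 also rose averaged over variants. Over all genes 1.42%, 1.49% and 7.35% passed in Variant 1, Variant 3 and the average. H2-Q5, a heavy chain gene not on the list, also rose in both variants (1.88 and 1.69, edgeR adjusted p = 0.0326 and 0.0454). H2-Q6 went from 55.9 ± 20.5 to 210 ± 16.8 CPM in Variant 1 and from 81.0 ± 37.3 to 246 ± 58.0 CPM in Variant 3 (SD, n = 3 codes), with log2 fold changes of 1.91 and 1.60 (adjusted p = 0.0245 and 0.0412). H2-Q7 went from 35.1 ± 9.64 to 159 ± 53.4 CPM and from 55.4 ± 25.2 to 191 ± 67.0 CPM, with log2 fold changes of 2.18 and 1.79 (adjusted p = 0.0245 and 0.0436). These Q region genes are close copies, so reads may be shared between them.

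None of 11 other genes of peptide supply and loading passed in any guide comparison, among them the chaperones Calr, Canx and Pdia3, the trimming enzyme Erap1, the proteasome activators Psme1 and Psme2 and the subunit Psmb10. Their median log2 differences were -0.04 in Variant 1, -0.04 in Variant 3 and -0.02 averaged, and their averaged values lay between -0.24 and 0.13. At an unadjusted p under 0.05 by edgeR, 0 of the 11 stood in any of the 3 guide comparisons. None of 15 constitutive proteasome genes passed either. Their median was -0.21 in Variant 1, -0.07 in Variant 3 and -0.12 averaged. At an unadjusted p under 0.05 by edgeR stood 6, 1 and 4 of these genes in turn. MHC class II genes, carried by alveolar type 2 cells as well as by leukocytes, passed in 0 of 8, with an averaged median of 0.20 and 2 genes at an unadjusted p under 0.05.

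Upstream of the pathway, 1 of 19 regulators of class I transcription rose averaged over variants: Stat2, a factor of the type I interferon response (0.77, SE 0.21, adjusted p = 0.0479). Of 12 receptor and JAK genes, Ifngr1 (0.74, adjusted p = 0.00359), Ifngr2 (0.34, adjusted p = 0.0473), Ifnlr1 (0.56, adjusted p = 0.0441) and the TNF receptor gene Tnfrsf1b (0.61, adjusted p = 0.00604) rose in the average, and Ifngr1 and Tnfrsf1b also in Variant 1. Of 6 interferon genes, Ifng, Ifnl2 and Ifnl3 had no count in any tumour, and only Ifnk had enough counts to be tested. Of 25 interferon response genes, 7 rose in the average, Irf7, Isg15, Oas1a, Oasl2, Ddx58, Xaf1 and Zbp1, by 0.47 to 1.66, and the median of the 25 was 0.81. In the averaged comparison 7.35% of all genes passed, and the share was 4 of 12 for the receptor list, 7 of 25 for the response list and 1 of 19 for the regulators.

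**Figure D5:**
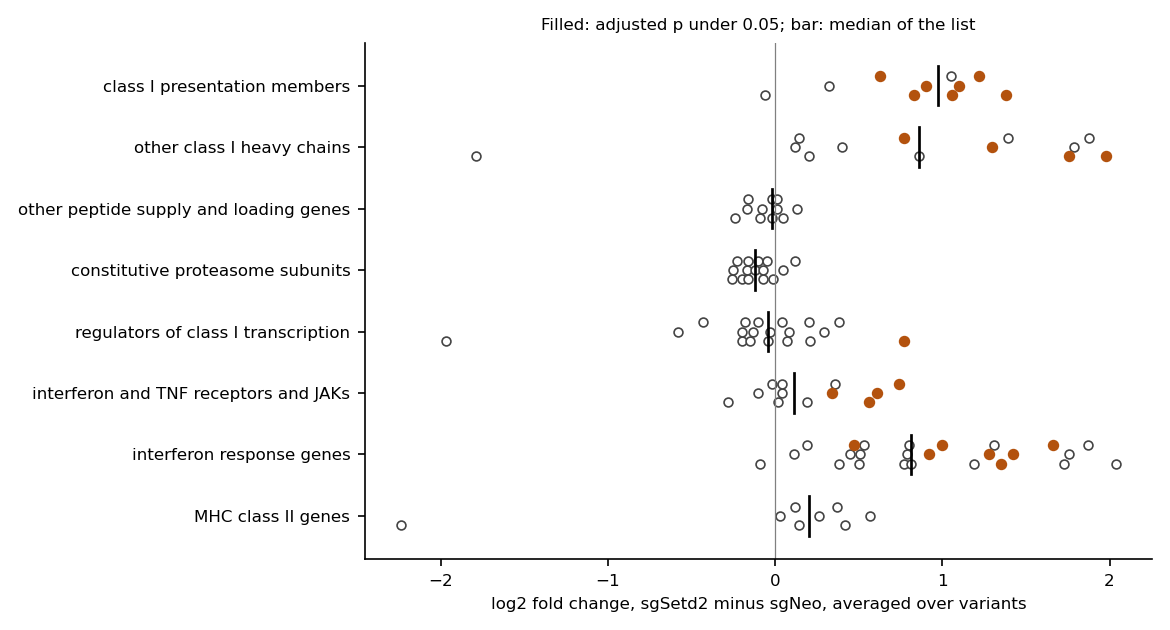
Log2 fold change, sgSetd2 minus sgNeo averaged over variants, of the 10 members and of 7 lists of related genes. Each point is a gene, filled where the adjusted p was under 0.05, and bars are list medians. Members and other heavy chains have medians of 0.98 and 0.86, and peptide loading and constitutive proteasome genes lie close to 0.

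The genes most like the members across tumours were sought among 9846 other genes with a mean of at least 5 CPM, by Pearson's r of log2(CPM + 1), group means removed, with the mean of the 10 members over 36 tumours. The closest were the heavy chain genes H2-Q7 (0.95), H2-Q6 (0.92) and H2-Q5 (0.90), followed by Ly6e, Rtp4, Irx2 and Slc6a20a at 0.79 each, Trim30d at 0.78 and Phactr1 and Scp2 at 0.77. The most opposed were Brix1 (-0.81), Ddc and Mybbp1a (-0.77 each) and Sf3b4 and Arg1 (-0.72 each). Ly6e and Rtp4 are known interferon-induced genes, Irx2 is a transcription factor gene, and Brix1 and Mybbp1a act in ribosome production. Ddc, which encodes the amine-forming enzyme dopa decarboxylase, ran from 0 to 37.5 CPM, and its averaged log2 fold change with sgSetd2 was -4.49 (adjusted p = 0.00081). These values of r are descriptions without a test.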

How the data were processed

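Per the labels' protocols, a PicoPure kit was used for RNA and a SMART-Seq mRNA kit for the libraries. The authors deposited raw read counts per gene, 1 column per tumour. The tools STAR 2.5.3a, R 4.2 and DESeq2 1.38.3 were used per the submitters' processing notes. How reads were assigned to genes, with or without strand, and on which build and annotation, was not given in the sources used here. Of 49585 identifiers, 49326 took symbols and coordinates from GENCODE mouse release M21 (GRCm38) by ID, which may not be the authors' build, and 259 had none.

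For each code the counts of its 3 tumours were added. A single edgeR 4.0.16 fit (R 4.3.3) covered the 12 sums, with the filterByExpr filter by group, TMM, robust glmQLFit, glmQLFTest and Benjamini-Hochberg adjustment over 20009 genes at 0.05. An SE was obtained by dividing the size of a log2 fold change by the root of its F statistic. CPM per tumour used the same scaling steps. Within 3 proteasome ratios, codes were permuted exactly. The fit was tested on simulated data. The alternatives tried were scaling by RLE or by upper quartile, a fit without the filter, DESeq2 1.42.0, limma 3.58.1 on tumours with the code as a random block and on code means, only the groups compared, a leukocyte covariate, heavy chain rows summed, and each code and tumour left out. A cell cycle covariate, leaving out tumours of high cell cycle or fibroblast levels (over 100 CPM), and sex of the code (Ddx3y over 50 CPM) were added after seeing the data.

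The 10 members and all lists were chosen with earlier results of these data known. Named genes were all 10 members, list genes that passed (up to 6 per list and comparison), and the 10 genes most like the members by r; the opposed genes, and list genes named as examples without a call, were chosen after their values were seen. H2-Q5 was on no list and was named because it is among the most alike genes. No sequencing batch is labelled, and none could be tested.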

Additional observations from a re-analysis of the deposited data

Results flagged for a closer look

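In Variant 1 sgSetd2, tumour 4 of CE479 had 1561 CPM of H2-D1. That was far below the other 8 tumours of its group, the nearest of which had 2489 CPM. This tumour was also the lowest of its group for every other member except Tapbp. Its summed fibroblast and endothelial markers, 182 and 8.9 CPM, were the highest of the group. Tumour 2 of CE479 had 43.4 CPM of Nlrc5, far above the other tumours of the group, the nearest at 20.1 CPM. In these 2 values 1 tumour stood apart from the rest of its group of 9 by more than the spread of the others allows at 95%. Each of the 10 genes was examined in each group, 40 sets in all, and chance gives such a value in about 1 of 20 sets.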

How the results depend on the processing

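Called members numbered 4 in Variant 1, 2 in Variant 3 and 7 in the average. Scaling by RLE or by upper quartile, a fit without the filter and DESeq2 changed these by at most a factor of 1.5, except that DESeq2 called 5 in Variant 3. Over all genes DESeq2 called 1500, 1337 and 2869 in Variant 1, Variant 3 and the average, against 284, 299 and 1471 in the main fit. In Variant 1 the count was 2 with limma on code means, 1 with the leukocyte covariate, and 0 with the cell cycle covariate, without tumours whose cell cycle mean was above 4 or above 4.5, and without tumours of fibroblast markers above 100 CPM. Calls over all genes in those fits were 205, 75, 0, 9, 6 and 341 in turn. Folds changed less than calls in some of these fits. With the leukocyte covariate H2-K1 was at 1.15 and B2m at 1.57 (edgeR adjusted p = 0.0629 and 0.0611). This covariate was the unweighted mean log2-CPM of the 14 tested leukocyte and macrophage markers, not the sum that Cd14 dominated. That fit therefore does not show what adjusting for the sum would give. Without the fibroblast tumours H2-D1 was at 0.93 and B2m at 1.27 (edgeR adjusted p = 0.0577 and 0.0975). The main fit gave 1.13, 1.15 and 1.55 for H2-D1, H2-K1 and B2m. Folds fell further in the cell cycle fits. Without tumours above 4 these genes were at 0.36, 0.35 and 0.65, and with the cell cycle covariate at 0.75, 0.63 and 0.77. In Variant 3 the number called was 7 with limma on tumours and 4 with limma on code means. It was 1 with the leukocyte covariate or with sex of the code. It was 0 in a fit of the groups compared and without the fibroblast tumours. Without tumours of cell cycle mean above 4 or above 4.5 it was also 0. Calls over all genes in these Variant 3 fits were 1174, 563, 188, 188, 172, 317, 49 and 129 in turn. In the average the number of members called was 0 with the cell cycle covariate, 4 without tumours above 4 and 2 without those above 4.5. Over all genes, 16, 265 and 338 were called in these fits of the average. Sex was unbalanced, with 0, 1, 2 and 1 male codes of 3 in Variant 1 sgNeo, Variant 1 sgSetd2, Variant 3 sgNeo and Variant 3 sgSetd2. Leaving out 1 code or tumour gave 0 to 4 calls in Variant 1, 0 to 4 in Variant 3 and 4 to 8 in the average. Single tumours that left none were CE467 tumour 1 and CE472 tumour 2 in both variants, CE433 tumour 3 in both variants and CE428 tumour 2 in Variant 3; the cause was not tested. The 3 remaining comparisons had 0 calls under every alternative run. The 2 called proteasome ratios stayed called with summed counts, with a pseudocount of 0.5 CPM and with each code left out. They were not run with covariates, without tumours of high cell cycle or fibroblast levels, or with single tumours left out. No called value changed sign. Among values that passed no test, Tapbp in Variant 1 went from -0.01 to 0.01 with RLE, 0.00 with upper-quartile scaling and 0.01 with DESeq2, and Nlrc5 in Variant 1 to -0.38 with the cell cycle covariate. With 1 code or tumour left out, Tapbp ranged from -0.12 to 0.10 in Variant 1, from -0.24 to 0.07 in Variant 3 and from -0.13 to 0.03 in the average. No paired analysis was possible because the units tested are codes, each code belongs to 1 group, and the sums per code carry no number that recurs in another group.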

Other observations

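Class I-like genes, whose products share the fold of class I heavy chains, passed in 0 of 7 by edgeR in each guide comparison, with 3 at an unadjusted p under 0.05 in the average. Cd1d1, which presents lipids, was near background in sgNeo codes (means of 0.0205 CPM in Variant 1 and 0.15 CPM in Variant 3) and stood at 1.02 and 1.25 CPM in sgSetd2 codes (averaged adjusted p = 0.0813). Mr1, which presents vitamin metabolites, was at 19.0, 18.7, 23.5 and 14.6 CPM in Variant 1 sgNeo, Variant 1 sgSetd2, Variant 3 sgNeo and Variant 3 sgSetd2. Fcgrt, the neonatal Fc receptor gene, was at 18, 20.8, 22.5 and 12.1 CPM in the same order. H2-T23, the ligand of the NKG2A receptor, stood at 118, 141, 109 and 120 CPM (averaged log2 difference 0.20, adjusted p = 0.433), and H2-M3 at 19.7, 22.3, 22.1 and 23.6 CPM. Ezh2, a Polycomb enzyme gene known to restrain class I genes in some tumours, was at 24 CPM in Variant 1 sgNeo and 11.9 CPM in Variant 1 sgSetd2, a log2 difference of -1.01 that did not pass (adjusted p = 0.085), and at 18.1 and 16.4 CPM in Variant 3. These genes were chosen after their values were seen, and no explanation is offered.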
